A study of Mus musculus with 5 samples.

Results

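The neutrophils described here are single-cell barcodes rich in S100a8 and S100a9, the genes of the calcium-binding pair that fills the neutrophil cytosol. They numbered 117 of the 10718 barcodes kept from 5 mouse pancreas and pancreatic tumour libraries, or 1.09%. A barcode was kept if it held at least 200 genes and at most 20% mitochondrial UMIs, a UMI being a molecule tag that counts captured transcripts. A kept barcode was a member if S100a8 and S100a9 together reached 100 UMIs per 10000 of its UMIs, if C1qa, C1qb and C1qc stayed under 10 per 10000, if Cd3d, Cd3e, Cd3g, Cd79a and Epcam had 0 UMIs, and if Col1a1, Col1a2, Col3a1 and Dcn stayed under 30 per 10000. The same 117 barcodes were found when the gene minimum was lowered to 100. The levels of these chosen genes are therefore given as a description only.

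Neutrophils are short-lived granulocytes that the bone marrow makes under granulocyte colony-stimulating factor, read by the receptor Csf3r, and that enter tissue through the chemokine receptor Cxcr2. While they mature they fill azurophil, then specific, then gelatinase granules with antimicrobial proteins, and the transcripts of these granule genes are most abundant in immature cells. In pancreatic tumours neutrophils are studied as sources of inflammatory cytokines and as cells that can restrain T cells.

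Each library came from untreated mice and there was 1 library per group, so a group has no replicate check, no difference between groups was tested, and every interval below covers counting error only. The groups were normal pancreas at 60 days, early invasive KIC cancer at 40 days, late invasive KIC cancer at 60 days and late invasive KPC cancer at 6 months, all on a mixed C57BL/6 and FVB background, and late invasive KPfC cancer at 60 days on C57BL/6. The labels give no alleles. As background, the KIC, KPfC and KPC models use a Cre recombinase of the pancreatic lineage, with Cdkn2a deleted in KIC, Trp53 deleted in KPfC and Trp53 carrying a point mutation in KPC. The recombination is thus aimed at the pancreatic epithelium, and the neutrophils are host cells. KPfC differed from the other tumours in strain, and KPC in age, so model, strain and age cannot be told apart.

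The members were 2 of 2386 kept barcodes in normal pancreas, 3 of 3529 in early KIC, 10 of 836 in late KIC, 78 of 2933 in late KPfC and 24 of 1034 in late KPC. Their shares were 0.0838% in normal pancreas (exact Clopper-Pearson 95% interval 0.0102 to 0.302), 0.0850% in early KIC (0.0175 to 0.248), 1.20% in late KIC (0.575 to 2.19), 2.66% in late KPfC (2.11 to 3.31) and 2.32% in late KPC (1.49 to 3.43). The late tumours held the larger shares: the share in late KIC was 14.1 times that in early KIC (3.62 to 79.6). The late KPC share was 0.873 times the late KPfC share (0.528 to 1.39), an interval that includes equality, and the late KIC share was 0.450 times the late KPfC share (0.208 to 0.872). Early KIC was 1.01 times normal pancreas (0.116 to 12.1). The 3 members of early KIC went against the neutrophil label, as given below, so the ratios with early KIC describe barcodes that met the rule. These shares also depend on dissociation and on which droplets were called cells. The barcode with the fewest UMIs held 2286 in normal pancreas, 1159 in early KIC, 4433 in late KIC, 2776 in late KPfC and 765 in late KPC, and neutrophils hold little RNA, so the share below those limits was not measured. Among barcodes with a Ptprc UMI, the gene of the pan-leukocyte protein CD45, members were 2 of 270 in normal pancreas, 0 of 319 in early KIC, 4 of 324 in late KIC, 41 of 1636 in late KPfC and 9 of 327 in late KPC. These shares were 0.741% in normal pancreas (0.0898 to 2.65), 1.23% in late KIC (0.337 to 3.13), 2.51% in late KPfC (1.80 to 3.38) and 2.75% in late KPC (1.27 to 5.16). On this base the interval of normal pancreas overlaps that of each late tumour.

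Library depth ran from 3488871 UMIs in late KPC to 26749820 in late KPfC. The members of a library summed to 6305 UMIs in normal pancreas, 4223 in early KIC, 57212 in late KIC, 336960 in late KPfC and 45674 in late KPC, which sets how finely each can be read. The median member held 3787.5 UMIs in late KPfC and 1380.5 in late KPC, beside 8380 and 2286.5 for C1q macrophages of the same libraries. Droplet data also carry free RNA: 92.5% of the other kept barcodes of late KPfC, 72.9% of late KIC and 28.8% of late KPC had a UMI of S100a8 or S100a9. No member shared its barcode with another library. Between pairs of libraries 1 to 17 barcodes were shared.

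Within a library the S100a8 and S100a9 content of members was spread over more than an order of magnitude. In late KPfC it ran from 140 to 4142 UMIs per 10000 with a median of 1425, in late KPC from 158 to 4479 with a median of 2733, and in late KIC from 207 to 3727 with a median of 2658. The 2 members of normal pancreas held 1754 and 3002. The highest non-member that failed on this content alone held 81.7 per 10000 in late KPfC and 94.2 in late KPC, next to 140 and 158 for the lowest members. Of 161 barcodes that reached the limit, 9 were left out for C1q genes and 35 for lymphoid genes or Epcam, 26 of these in late KPfC.

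**Figure D1:**
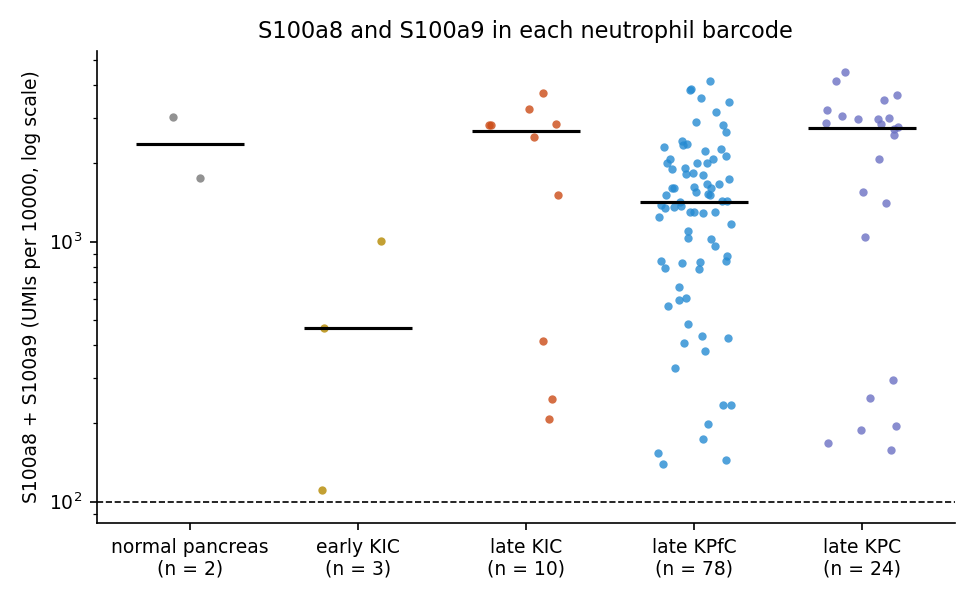
Each point is 1 neutrophil barcode; the vertical axis is S100a8 plus S100a9 in UMIs per 10000 UMIs of the barcode on a log scale, the black bar is the library's median and the dashed line is the limit of 100 for membership. Late KPC has a cluster of 6 barcodes under 400 apart from the rest, whereas late KPfC fills the range from 140 to 4142.

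Of 10 further neutrophil markers that did not choose the members (Csf3r, Cxcr2, Retnlg, Mmp9, Hdc, Il1r2, G0s2, Trem1, Clec4d and Ly6g), at least 3 were detected in 2 of 2 members from normal pancreas, 9 of 10 from late KIC, 77 of 78 in late KPfC and 22 of 24 in late KPC. The same count was reached by 74 of 145 C1q macrophages in late KIC, 535 of 985 in late KPfC and 40 of 254 in late KPC, so it does not set the members apart by itself. When every barcode was thinned to 500 UMIs, 6 of 10 late KIC members, 38 of 78 late KPfC members and 15 of 24 late KPC members still had at least 3, against 1 of 145, 2 of 985 and 0 of 254 C1q macrophages. In normal pancreas both members and 0 of 39 macrophages did. On this measure the label neutrophil fitted these 4 libraries. The receptors themselves were sparse: Csf3r or Cxcr2 was seen in 42 of 117 members, 28 of them in late KPfC and 6 in late KPC. Of members under 400 S100 UMIs per 10000, 9 of 9 in late KPfC, 5 of 6 in late KPC, 1 of 2 in late KIC and 0 of 1 in early KIC had at least 3 markers before thinning, the count that many macrophages reached too.

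The 3 members of early KIC went against the label. None reached 3 of the 10 markers and 2 of them had none, while the azurophil granule genes Mpo, Elane and Prtn3, which myeloid precursors transcribe, held 48, 44 and 26 UMIs. Retnlg, Mmp9, Ly6g and Cxcr2 were at 0 there, and 12.4% of the members' UMIs were acinar enzyme transcripts. These came mostly from 1 barcode, at 380727 CPM beside 9144 and 17674 in the others, and that barcode held 0 UMIs of the 3 azurophil genes. These barcodes are called S100a8-rich barcodes of early KIC below. With 4223 UMIs in all, their gene levels were not given as ratios to another library. The share ratios above count them as members.

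RNA of other cell types was low in the late members. Levels are given in CPM, a gene's UMIs over all UMIs of the members of a library, scaled to the usual CPM total. The 14 macrophage markers summed to 874 CPM in late KIC, 1944 in late KPfC and 766 in late KPC, against 25066, 21195 and 17765 CPM in C1q macrophages. The 3 C1q genes among the 14 were also part of the rule. In late KPC 9 of the 14 were at 0, among them Csf1r, Mrc1, Cd68 and Trem2, and in late KPfC only Ms4a7 was. Monocyte markers were less clearly separate: a UMI of Ly6c2, Ccr2 or Csf1r was present in 8 of 10 members in late KIC, in 33 of 78 in late KPfC and in 13 of 24 in late KPC. Of 11 mast cell, basophil and eosinophil markers, 6 were at 0 in late KPfC, among them Epx, Prg2 and Prss34, and 10 each in late KIC and late KPC. In late KPfC Siglecf, Cpa3, Mcpt8, Kit and Ccr3 were detected, and the list summed to 226 CPM in members against 58.9 in the other barcodes. Haemoglobin made up 73.5%, 60.0% and 55.7% of the UMIs of 1 member each in late KIC, late KPfC and late KPC, and the median member of each library had under 1%. In late KPfC 32 members had UMIs of Y-linked genes only and 0 of Xist, the female-expressed RNA, and in late KPC 6 had Xist only and 0 Y-linked genes. Late KIC held both kinds, as did its other barcodes.

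Granule genes were abundant in the late members and in the 2 members of normal pancreas. Camp, which encodes the antimicrobial peptide cathelicidin, stood at 12253 CPM in late KIC (exact Poisson 95% interval 11362 to 13194), 5553 in late KPfC (5304 to 5810) and 22836 in late KPC (21471 to 24265). Ngp, the neutrophilic granule protein, stood at 24942, 8345 and 26076 CPM. Late KPfC was the lowest of the 3 late tumours in both. It was also the lowest for the other 2 abundant genes of the specific granules, while the highest library differed between them: lactoferrin, Ltf, stood at 1626, 1303 and 3481 CPM, and lipocalin, Lcn2, at 7131, 3552 and 4926 CPM. In normal pancreas, with 2 barcodes, Ngp reached 53926 CPM, Lcn2 10309, Camp 9516 and Ltf 8406.

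Late KPC against late KPfC was the only pair in which both libraries held at least 20 members, so it is the only one given as ratios. Of the 1859 genes with at least 20 UMIs over both member sums, 5.97% were at least 2-fold higher in late KPC and 28.6% at least 2-fold lower, and the median gene lay at -0.44 on the log2 scale. Higher or lower below means at least 2-fold. Since the median is below 0 and late KPC was sequenced less deeply, counts of lower genes are to be read against that background. The groups do not allow a test, and model, strain, age, sex and depth differ between these 2 libraries at once.

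Of 10 measured specific-granule genes, 5 were higher in late KPC (Camp, Ngp, Ltf, Chil3 and Chil1) and 0 lower, with a median log2 ratio of 0.94. Camp was 4.11-fold higher (3.81 to 4.44), Ngp 3.12-fold (2.92 to 3.34) and Ltf 2.67-fold (2.21 to 3.21). Lcn2 was within 2-fold at 1.39 (1.20 to 1.60). Ltf was under 2-fold, at a log2 ratio of 0.70, when members with any C1q UMI were left out. Chil1, a chitinase-like protein, was 7.38-fold higher (3.03 to 18.0), on 12 UMIs in each library. Chil3, another chitinase-like protein and also a macrophage gene, was 4.60-fold higher, but in late KPC its level in members, 2211 CPM, was under that of the other kept barcodes, 5243 CPM, and free RNA was not tested as its source. A few barcodes carried most granule UMIs. The 7 richest members held 56.5% of the UMIs of Camp, Ngp, Ltf and Lcn2 in late KPfC, 88.1% in late KPC and 98.4% in late KIC. Camp was detected in 39 of 78, 14 of 24 and 7 of 10 members.

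Of the genes on the gelatinase-granule list, some differed as the specific-granule genes did and Mmp9 did not. Which granule holds each protein was not measured, so the list is only a grouping, for Mmp8 too. Mmp8, neutrophil collagenase, stood at 419 CPM in late KIC, 86.1 in late KPfC and 613 in late KPC, 7.12-fold higher in late KPC than in late KPfC (4.08 to 12.4). Pglyrp1, a peptidoglycan-binding protein, stood at 2412, 843 and 2343 CPM, 2.78-fold higher (2.20 to 3.48), and the protease gene Adam8 was 2.86-fold higher (1.34 to 5.72). Thinned to 500 UMIs per barcode, Pglyrp1 had a log2 ratio of 0.77. Mmp9, gelatinase B, stood at 769, 712 and 482 CPM and was within 2-fold, with a ratio of 0.676 (0.416 to 1.05). Of 5 measured genes on the gelatinase-granule list 3 were higher and 1, Slpi, lower. Slpi was under the level of the other barcodes in every late library, and its log2 ratio of -1.14 turned to 0.10 with an S100 limit of 50.

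Azurophil genes were nearly confined to single barcodes. In late KPfC 1 member held all 22 UMIs of Mpo and all 57 of Elane, the myeloperoxidase and neutrophil elastase genes. Late KPC members held 1 and 3 UMIs, and late KIC members 0, which allows up to 52.4 CPM there. Prtn3, proteinase 3, was the exception, with 120 UMIs in 37 late KPfC members, but C1q macrophages of that library held it at 630 CPM against 356 in the members. The 3 measured azurophil genes were all lower in late KPC, a count that rests on that 1 member, which also held 49 of the Prtn3 UMIs. Without it Mpo and Elane were no longer measured and Prtn3 was under 2-fold, at a log2 ratio of -0.98.

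Retnlg and Ly6g were higher in late KPC as well, whereas Cd177 was not. Retnlg, a resistin-like secreted protein, stood at 24645 CPM in late KIC, 5407 in late KPfC and 19924 in late KPC, 3.68-fold higher in late KPC than in late KPfC (interval up to 3.99). It was detected in 9 of 10, 50 of 78 and 20 of 24 members. Ly6g, the antigen of the antibody used to stain mouse neutrophils, stood at 402, 86.1 and 438 CPM, 5.09-fold higher (2.73 to 9.31), and was seen in only 7, 7 and 9 members. Cd177, a surface protein of the specific granules, ran the other way at 507, 837 and 482 CPM, within 2-fold. Of the 25 measured genes of the neutrophil identity list, 9 were higher in late KPC and 1 lower, with a median log2 ratio of 0.79. Among the 9, Stfa2, Stfa2l1, Stfa3, BC100530 and Gm5483 lie in 1 gene cluster, described next, and some are near copies. The others were Retnlg, Mmp8, Trem3 and Ly6g. G0s2, Hdc, Il1r2, Trem1 and Mxd1 were each within 2-fold.

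The stefins were the genes that set the libraries apart most. Stefins A are small cytosolic inhibitors of cysteine cathepsins, and the mouse has a tandem cluster of them on chromosome 16. The 10 cluster genes searched spanned chr16:36119946-36455392 of GRCm38 and together stood at 44746 CPM in late KIC (43029 to 46514), 5469 in late KPfC (5223 to 5725) and 43592 in late KPC (41698 to 45549). They were detected in 9 of 10, 59 of 78 and 19 of 24 members. Late KIC and late KPC were alike and late KPfC was lower. Normal pancreas, with only 2 members, held 13 UMIs or 2062 CPM (1098 to 3526), 8 of them of BC100530 in 1 member. Early KIC, with 3 members, held 0 UMIs.

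The cluster genes did not differ by a common factor. BC100530 stood at 22338 CPM in late KIC, 157 in late KPfC and 23602 in late KPC, 150-fold higher in late KPC than in late KPfC (114 to 202). Stfa3 stood at 2814, 5.94 and 2474 CPM, a ratio of 417 (113 to 3484) that rests on 2 late KPfC UMIs. Stfa2 was 22.8-fold higher (16.8 to 31.2), Stfa2l1 7.79-fold (5.93 to 10.2) and Gm5483 2.54-fold (2.28 to 2.82). Against this, 2010005H15Rik stood at 175, 599 and 21.9 CPM and was 27.4-fold lower in late KPC (4.86 to 1087), on 1 late KPC UMI. Stfa1 was within 2-fold at 1.76 (0.824 to 3.46).

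Some of these genes are near copies, and each of those alone is uncertain. Over the last 400 bases of their transcripts, the part that 3′ counting reads, Stfa1 and BC100530 were 98.0% identical, BC117090 and BC100530 96.8%, Stfa1 and BC117090 96.0%, Stfa2l1 and Stfa2 95.8%, and Gm5483 and 2010005H15Rik 95.7%. The other pairs of the 45 were 68.5% to 89.8% identical, and Stfa3 was at most 84.9% identical to any other. How reads were shared among such copies, and how strain differences within the cluster bear on that, was not tested. The sum over the cluster does not depend on which of these copies a counted read was given to. Whether reads that match several copies were left uncounted, and equally so in each library, was not tested.

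Promoter windows of Stfa2l1, Stfa1, Stfa2 and Stfa3, 150 bases before the start site, resemble each other too, at 83.1% to 91.1% identity between pairs. All 150 bases of the Stfa1 window and 94 of the Stfa2 window lie in annotated exons. Of the 4 cluster genes with an entry in RefSeq's promoter table (GRCm38.p6), Stfa2l1 and Stfa3 are shown because no annotated exon overlaps their last 150 bases before the start site, and because they differed 7.79-fold and 417-fold between the libraries. Capitals mark the 2 longest runs of bases that all 4 stefin windows share, ACTCAGCATTTCC and ACCTTTAAAACCC, which begin 147 and 36 bases before the start site in Stfa2l1 and 144 and 34 in Stfa3. Stfa2l1 lies on the plus strand (chr16:36156661-36156810) and Stfa3 on the minus strand (chr16:36455393-36455542), each printed 5′ to 3′ along its gene.
Stfa2l1: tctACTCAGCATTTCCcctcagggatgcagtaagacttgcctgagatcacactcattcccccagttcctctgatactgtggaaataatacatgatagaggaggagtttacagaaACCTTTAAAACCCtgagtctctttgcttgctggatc
Stfa3: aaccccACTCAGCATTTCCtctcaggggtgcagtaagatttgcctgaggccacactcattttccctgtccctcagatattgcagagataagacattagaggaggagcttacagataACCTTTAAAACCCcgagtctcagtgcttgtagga
The pair is 84.2% identical over 146 aligned bases. Searched on both strands, ACCTTTAAAACCC was in 8 of 32851 windows of the same length, 0.0244%, and ACTCAGCATTTCC in 6, 0.0183%, the 4 stefin windows included. A match is a description of these letters and not a binding site.

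The upstream sequences of the granule genes Ltf and Ngp are shown because these genes differed together, 2.67-fold and 3.12-fold. C/EBP-family factors control granule genes as background, so TTGCNNAA and its reverse complement TTNNGCAA were searched on both strands in the last 150 bases before the start site. Capitals mark a match, 75 bases before the start site in Ltf (plus strand, chr9:111019142-111019270) and 138 in Ngp (plus strand, chr9:110419658-110419746). Bases inside an annotated exon are left out.
Ltf: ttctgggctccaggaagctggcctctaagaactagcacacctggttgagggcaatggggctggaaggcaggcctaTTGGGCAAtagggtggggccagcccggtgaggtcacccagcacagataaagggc
Ngp: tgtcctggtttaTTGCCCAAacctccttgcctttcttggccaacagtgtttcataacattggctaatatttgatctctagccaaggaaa
Ngp had 2 matches, 1 of them in the part not printed, Ltf had 1, and Camp and Lcn2 had 0. All 150 bases of the Camp window and 97 of the Lcn2 window lay in annotated exons. Neither window reached beyond the first annotated exon, so the sequence upstream of it was not searched for these genes. The motif was in 1794 of 32851 windows, 5.46%.

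**Figure D2:**
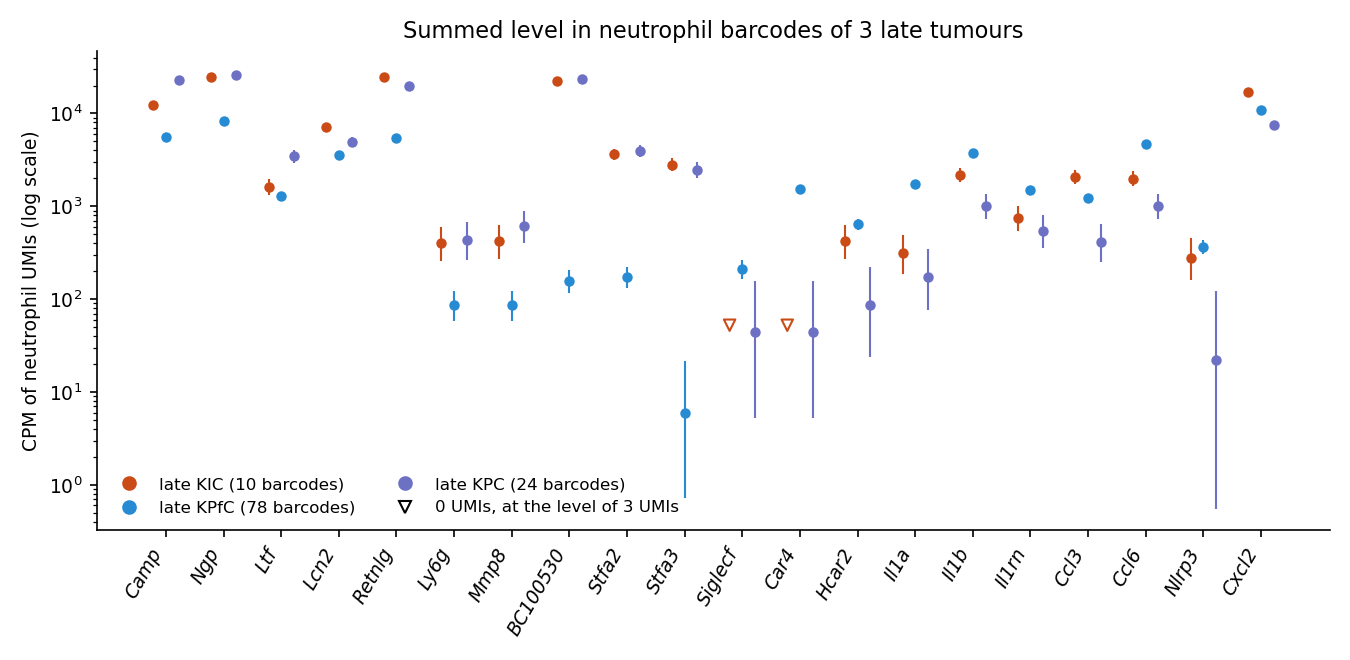
Summed level of 20 genes in the neutrophil barcodes of late KIC, late KPfC and late KPC, in CPM of neutrophil UMIs on a log scale; bars are exact Poisson 95% intervals and open triangles mark 0 UMIs, drawn at the level of 3 UMIs. Camp to Stfa3 are lowest in late KPfC, whereas Siglecf, Car4, Hcar2, Il1a, Il1b, Il1rn, Ccl6 and Nlrp3 are highest there.

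The 20 genes ranked first in late KPC against late KPfC, 10 in each direction, held genes of the stefin cluster on both sides. Those higher in late KPC were BC100530, Stfa3, BC117090, Stfa2 and Stfa2l1. The lower side held 2010005H15Rik, inflammatory genes such as Il1a and Nlrp3, and others such as Car4 and Gsr. After the stefins, the genes higher in late KPC were BC018473, Mmp8, Ifitm6, Camp and Emilin2. BC018473 had 38 UMIs in 10 late KPC members and 0 in late KPfC and late KIC, at least 93.4-fold higher than in late KPfC. Ifitm6, an interferon-induced transmembrane family member, stood at 3461, 540 and 2671 CPM in late KIC, late KPfC and late KPC, 4.95-fold higher in late KPC than in late KPfC. Emilin2, an extracellular matrix glycoprotein, stood at 315, 148 and 876 CPM, 5.90-fold higher.

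The genes lower in late KPC included Car4, Il1a, 2010005H15Rik, Ccl6, Gsr, Nlrp3, Bcl2a1d, Il23a and Hcar2. Car4, a membrane-bound carbonic anhydrase, stood at 1528 CPM in late KPfC and was seen in 53 of its 78 members, against 43.8 CPM in late KPC and 0 UMIs in late KIC. It was 34.9-fold lower in late KPC (9.61 to 289). Gsr, glutathione reductase, stood at 787, 1054 and 153 CPM, 6.87-fold lower in late KPC. Late KIC lay with late KPfC for Gsr and with late KPC for Car4.

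**Figure D3:**
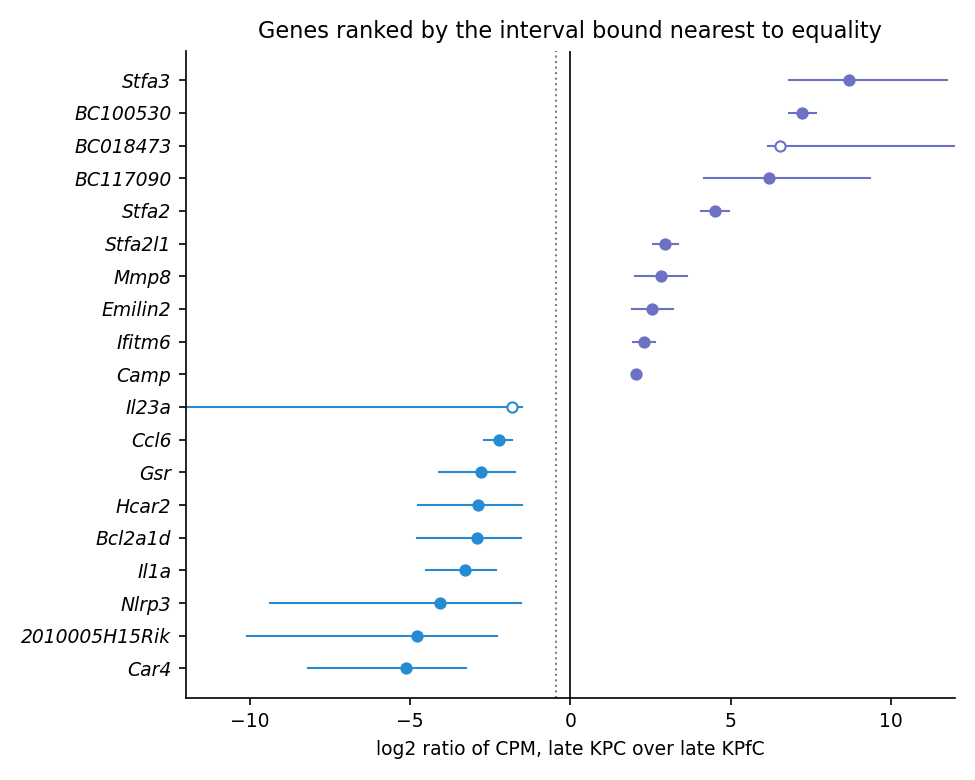
Of the 20 ranked genes, 19 with their log2 ratio of CPM, late KPC over late KPfC; bars are exact 95% intervals, cut at the axis limits, open circles mark a bound from 0 UMIs in 1 library and the dotted line is the median of all measured genes at -0.44. BC100530 and Stfa3 lie farthest to the right and Car4 farthest to the left.

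Inflammatory cytokine genes were mostly lower in late KPC neutrophils. Of 15 measured genes of the cytokine and chemokine list, 9 were lower and 1, Ccl4, higher, with a median log2 ratio of -1.56. Il1a, the interleukin-1 alpha alarmin, stood at 315 CPM in late KIC, 1724 in late KPfC and 175 in late KPC, 9.84-fold lower in late KPC (4.96 to 22.9). In late KIC all 18 UMIs came from 1 member, whereas 64 of 78 late KPfC members carried the gene. Il1b, the secreted interleukin-1, stood at 2185, 3778 and 1007 CPM, 3.75-fold lower (2.80 to 5.15), and was in 6, 73 and 8 members. Il1rn, which encodes their natural receptor antagonist, stood at 752, 1508 and 547 CPM, 2.75-fold lower (1.84 to 4.30). Agonists and antagonist ran in the same direction, but Il1rn had a log2 ratio of -0.39 when barcodes were thinned to 500 UMIs.

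Tnf stood at 105, 312 and 65.7 CPM and was 4.74-fold lower in late KPC (1.58 to 23.4). Ccl3, a macrophage inflammatory protein that attracts leukocytes, stood at 2080, 1226 and 416 CPM, 2.95-fold lower (1.86 to 4.94), with a log2 ratio of -0.65 when thinned. Ccl6, another CC chemokine, stood at 1993, 4725 and 1007 CPM, 4.69-fold lower (3.50 to 6.43). For Il1a, Il1b and Ccl6 the late KPC members lay under 0.5 of the level of the other late KPC barcodes, and the part of free RNA was not tested. Il23a, a subunit of interleukin-23, had 79 UMIs in late KPfC and 0 in late KPC, at least 3.57-fold lower.

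Ccl4, a close relative of Ccl3, went the other way at 489, 273 and 1248 CPM, 4.57-fold higher in late KPC (3.23 to 6.43). Its 57 late KPC UMIs came from 5 members, 22 of them from 1. Cxcl2, a ligand of Cxcr2 itself, was the most abundant chemokine of the members at 17042 CPM in late KIC, 11037 in late KPfC and 7444 in late KPC. It was seen in 10 of 10, 78 of 78 and 19 of 24 members, and was within 2-fold. Cxcl1, the other main Cxcr2 ligand, was 69.9, 208 and 65.7 CPM in members, under the level of the other barcodes in all 3 libraries. Vegfa, the angiogenic growth factor, had 32 UMIs in late KPfC and 0 in late KIC and late KPC.

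Genes often listed for tumour-associated neutrophils were mostly lower in late KPC or alike. Of 21 measured, 10 were lower and 1, Thbs1, higher, with a median log2 ratio of -0.89. Siglecf, a sialic acid receptor of eosinophils that also marks long-lived tumour neutrophils, had 71 UMIs in 38 of 78 late KPfC members, 2 in 2 of 24 late KPC members and 0 in late KIC, which allows up to 52.4 CPM there. It stood at 211 CPM in late KPfC and 43.8 in late KPC, 4.81-fold lower (1.28 to 40.5). Hcar2, a receptor for hydroxybutyrate and niacin, stood at 419, 644 and 87.6 CPM, 7.35-fold lower (2.83 to 27.2), and in 56 of 78 late KPfC but 2 of 24 late KPC members. Thinning every barcode to 500 UMIs brought its log2 ratio from -2.88 to -0.69. Clec4n, a fungal lectin receptor, stood at 87.4, 733 and 263 CPM, 2.79-fold lower. Arg2, an arginine-degrading enzyme, was within 2-fold. Nos2 and Dcstamp were at 0 in all late members, and Arg1 lay under the level of other barcodes in late KPfC and late KPC.

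Chemoattractant receptors differed little. Of 14 measured, 1 was higher (Ltb4r1, a leukotriene B4 receptor) and 3 were lower (Ccrl2, Csf2rb and Tnfrsf1a), with a median log2 ratio of -0.20. Ltb4r1 had a log2 ratio of 0.93 without members that had a C1q UMI, and Csf2rb one of -0.47 when thinned. Cxcr2 stood at 52.4 CPM in late KIC, 83.1 in late KPfC and 153 in late KPC, a ratio of 1.84 with an interval of 0.680 to 4.32. Csf3r stood at 157, 71.2 and 65.7 CPM. Fpr2, a formyl peptide receptor, stood at 612, 392 and 613 CPM, a ratio of 1.56. Ccrl2, a non-signalling chemerin receptor, stood at 1730, 1214 and 285 CPM, 4.26-fold lower in late KPC (2.47 to 8.08), and 59 of its 99 late KIC UMIs came from 1 member. Cxcr4, the marrow-retention receptor, held 8, 9 and 7 UMIs, too few to be measured.

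Among adhesion and Fc receptors, 1 of 11 was higher and 2 were lower. Cd44, the hyaluronan receptor, stood at 507, 323 and 788 CPM, 2.44-fold higher in late KPC (1.62 to 3.58). Selplg, the P-selectin ligand, was 7.86-fold lower on 1 late KPC UMI (1.36 to 316). Fcer1g, the shared signalling chain of Fc receptors, stood at 1626, 1867 and 1576 CPM and was within 2-fold.

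Of 21 measured stress-response and NF-kB target genes 12 were lower in late KPC and 2 higher, with a median log2 ratio of -1.01, beside -0.44 for all measured genes. Fos was 9.04-fold lower on 3 UMIs and Junb, at 1433, 1184 and 350 CPM, 3.38-fold lower (2.06 to 5.97). Nfkbia, the NF-kB inhibitor that NF-kB itself induces, stood at 1975, 1071 and 460 CPM, 2.33-fold lower. Thinned to 500 UMIs, the log2 ratio was -0.45 for Junb and -0.27 for Nfkbia. Jun and Dusp1 ran the other way, 2.89-fold (1.58 to 5.08) and 2.20-fold (1.37 to 3.45) higher. Without the limit on T cell, B cell and epithelial genes, Dusp1 had a log2 ratio of 0.89. Fos, Junb and Nfkbia in late KPC members, and Jun and Dusp1 in late KPfC members, lay under 0.5 of the level of the other barcodes. Nlrp3, the inflammasome sensor that leads to interleukin-1 beta processing, stood at 280, 365 and 21.9 CPM, 16.7-fold lower on 1 UMI (2.94 to 664).

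Of 3 transcription factors of the lineage, Cebpb and Cebpe were within 2-fold and Spi1 was lower. Cebpb stood at 2412, 1822 and 1730 CPM, a ratio of 0.949 (0.741 to 1.20). Cebpe, the factor of granule gene transcription in precursors, stood at 105, 175 and 131 CPM and was in 31 late KPfC, 2 late KPC and 1 late KIC members. Its log2 ratio was -0.41, but -1.70 without the deepest member of each library and -1.82 as a mean over barcodes. In these 2 of 12 other settings Cebpe was lower in late KPC. Spi1, which encodes PU.1, stood at 454, 460 and 109 CPM, 4.20-fold lower in late KPC (1.76 to 13.1).

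Glycolysis and hypoxia genes leaned to late KPfC as well. Of 14 measured, 8 were lower in late KPC and 0 higher, with a median log2 ratio of -1.04. Hk2, the first enzyme of glycolysis, stood at 35.0, 365 and 43.8 CPM, 8.34-fold lower (2.26 to 69.6). Aldoa stood at 577, 1065 and 241 CPM, 4.42-fold lower (2.44 to 8.94), and Eno1 at 350, 911 and 197 CPM, 4.62-fold lower (2.40 to 10.2). Hk2 and Aldoa in late KPC lay under 0.5 of the level of the other barcodes. Pgk1 had 68 UMIs in late KPfC and 0 in late KPC, at least 3.07-fold lower. Gapdh and Pkm were 2.11-fold and 2.02-fold lower, at the edge of the limit (log2 ratios as small as -0.68 and -0.86 in other settings), and Ldha was within 2-fold. Hilpda, a hypoxia-induced lipid droplet protein, stood at 1328, 959 and 1007 CPM and did not share the pattern.

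Of 10 measured survival genes 5 were lower and 0 higher. The Bcl2a1 copies, which encode the anti-apoptotic protein A1 and share near-identical sequence, made up 3 of the 5: Bcl2a1b stood at 769, 1347 and 416 CPM, 3.24-fold lower, Bcl2a1a was 2.51-fold lower (log2 ratio -0.69 when thinned) and Bcl2a1d, at 69.9, 656 and 87.6 CPM, 7.49-fold lower. Which copy a read came from is uncertain. Mcl1, on which neutrophil survival depends, stood at 402, 537 and 416 CPM and was within 2-fold.

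The oxidative burst genes were mostly alike. Of 9 measured, 0 were higher and 3 were lower, with a median log2 ratio of -0.23. Cyba, a membrane subunit of the NADPH oxidase, stood at 1660, 1988 and 1905 CPM, a ratio of 0.958 (0.757 to 1.20), and its partner Cybb at 524, 309 and 394 CPM. Ncf1, a cytosolic subunit, was 2.56-fold lower in late KPC on 7 UMIs (1.21 to 6.48). Among cytoskeleton genes, 4 of 17 were lower and 0 higher.

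Interferon-response genes were scarce: 4 of 18 reached 20 UMIs, and these 4 were within 2-fold. Isg15 had 36 UMIs in late KPfC and 0 in late KIC and late KPC. Of 8 measured antigen-presentation genes 1 was lower, Cd80 on 1 late KPC UMI. Cell cycle genes were few too, with 2 of 6 measured higher in late KPC, Rrm2 and H2afz. H2afz had a log2 ratio of 0.86 when thinned, 0.90 as a mean over barcodes and 0.94 without the deepest member of each library. Rrm2 was no longer measured when thinned or without those deepest members. Mki67 was in 1, 5 and 1 members of late KIC, late KPfC and late KPC.

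Granule transcripts and tumour-neutrophil genes were also set side by side barcode by barcode. Camp, Ngp, Ltf and Lcn2 summed to a median of 480 UMIs per 10000 in late KIC, 53.9 in late KPfC and 167 in late KPC. Siglecf, Hcar2, Il1rn, Clec4n, Arg2 and Ccrl2, a set chosen after their values were seen and with Ccrl2 from the receptor list, summed to 5.18, 42.9 and 4.17. Across barcodes the Spearman correlation of the 2 sums was -0.26 over 78 late KPfC members, -0.63 over 24 late KPC members and -0.07 over 10 late KIC members. Both sums share the barcode's UMI total, so they are given as a description. Granule transcripts made up at least 1% of UMIs in 25 of 78 members in late KPfC, 14 of 24 in late KPC and 7 of 10 in late KIC. A UMI of both Ly6g and Siglecf was found in 2 members, both of late KPfC, where 7 carried Ly6g and 38 Siglecf. The 7 Ly6g members of late KPfC had a median of 910 granule UMIs per 10000, and its 38 Siglecf members 58.5, near the 53.9 of all members. Camp was present in 22 of those 38 Siglecf members, beside 39 of all 78, and in 0 of the 2 of late KPC.

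**Figure D4:**
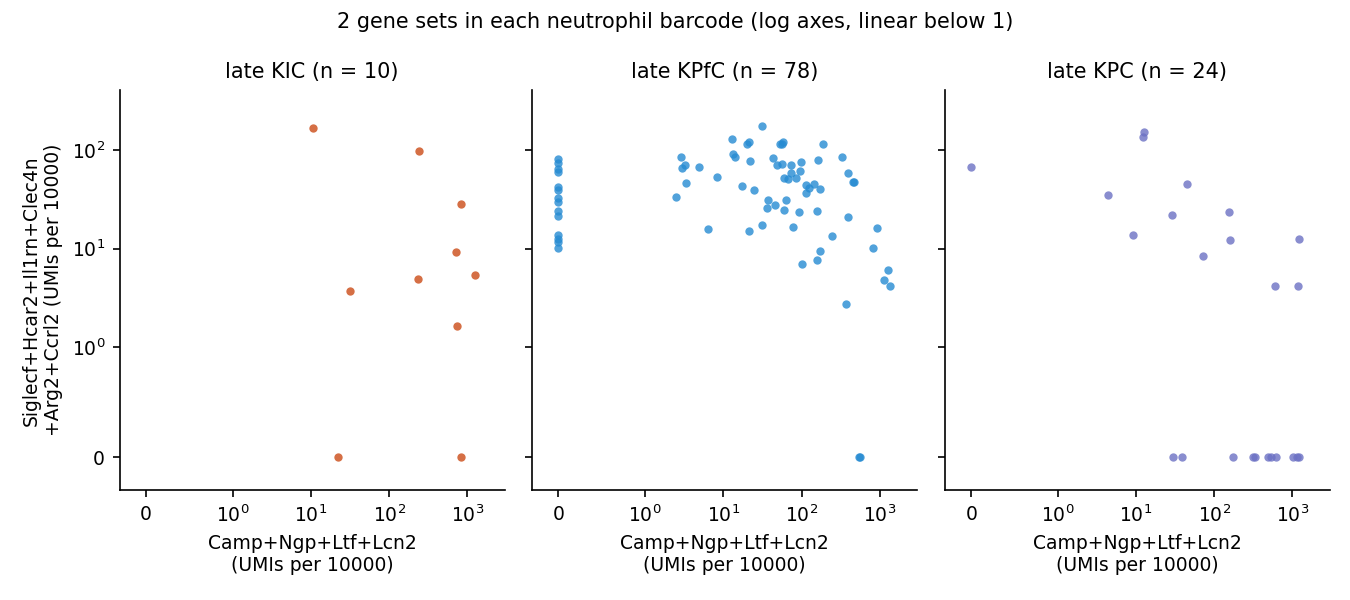
Each point is 1 neutrophil barcode of late KIC, late KPfC or late KPC; the horizontal axis is the sum of Camp, Ngp, Ltf and Lcn2 and the vertical axis the sum of Siglecf, Hcar2, Il1rn, Clec4n, Arg2 and Ccrl2, both in UMIs per 10000 on axes that are linear below 1 and logarithmic above. In late KPfC 14 barcodes have no granule UMI, and in late KPC 11 barcodes have no UMI of the second set.

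The members were set beside the C1q macrophages of the same library, 985 barcodes in late KPfC and 254 in late KPC. Of 9810 measured genes in late KPfC, 10.2% were at least 2-fold higher in neutrophils and 21.2% lower, and of 3884 in late KPC, 5.92% and 28.0%. With S100a8, S100a9, mitochondrial, acinar and haemoglobin genes left out of the totals, the share of higher genes among those at least 2-fold apart moved from 32.5% to 46.4% in late KPfC and from 17.5% to 36.2% in late KPC. Since the members were chosen by S100 genes from the same cells, these values describe the group and test nothing. In late KPfC 19 of 23 identity genes were higher and 1, Slpi, lower, and in late KPC 17 of 20 and 1. Ngp was 1078-fold higher in late KPfC and 3027-fold in late KPC, Camp 776-fold and 3182-fold, and Retnlg 329-fold and 1735-fold. Cxcr2 was 118-fold higher in late KPfC (48.0 to 349), Csf3r 3.68-fold (2.29 to 5.67) and Siglecf 44.9-fold (30.1 to 67.9). Fcnb, a ficolin, and Ceacam10 were 1012-fold and 455-fold higher in late KPfC.

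Genes of movement and sensing were in part higher. Of the measured chemoattractant receptors 8 of 15 were higher and 0 lower in late KPfC, and 5 of 13 higher and 3 lower (Csf2rb, Csf2rb2 and Tnfrsf1b) in late KPC. Of the cytoskeleton genes 6 of 17 were higher and 0 lower in late KPfC, and 4 of 16 higher and 2 lower (Fgr and Lyn) in late KPC. Fpr2 was 19.4-fold higher in late KPfC and 7.76-fold in late KPC, Il1r2, the decoy receptor for interleukin-1, 15.9-fold and 3.52-fold, and Rac2, a haematopoietic small GTPase of the oxidase, 3.30-fold and 3.01-fold. Coro1a, an actin regulator, was 4.04-fold and 2.54-fold higher. Of the measured antigen-presentation genes, 9 of 11 in late KPfC and 6 of 9 in late KPC were lower. Cd74, the class II invariant chain, was 19.5-fold lower in late KPfC, and Apoe was the lowest-ranked gene in late KPC, at 43.8 against 9352 CPM. In late KPfC Prg4, Alox15, Arg1, Fn1 and Il6 led the lower genes.

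The cytokines shared with macrophages depended on the library. Il1b in late KPfC stood at 3778 CPM in neutrophils and 3522 in macrophages, a ratio of 1.07 (1.01 to 1.13), whereas in late KPC neutrophils held 2.83-fold less (2.11 to 3.88) and in late KIC 3.28-fold less (2.75 to 3.95). Il1a was 1.55 times the macrophage level in late KPfC and 2.81-fold lower in late KPC. Il1rn was 3.37-fold higher than in macrophages in late KPfC and 1.06 times their level in late KPC. Cxcl2 was within 2-fold of macrophages in all 3 late tumours.

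**Figure D5:**
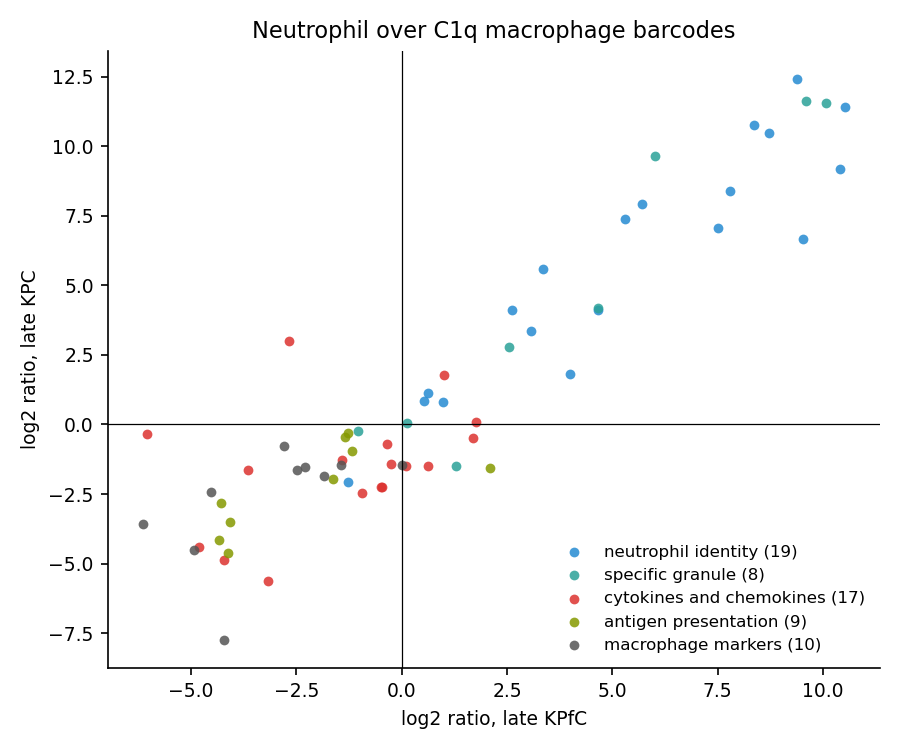
Each point is a measured list gene; the axes are the log2 ratio of neutrophil over C1q macrophage CPM in late KPfC (horizontal) and late KPC (vertical), coloured by list, with the number of genes in brackets. Identity and granule genes lie to the upper right in both libraries, apart from Slpi, Cybb and Chil3, and Ccl4 is the cytokine far into the upper left.

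Monocytes low in C1q, 233 barcodes in late KPfC and 127 in late KPC, gave a like picture. Of 5329 and 2112 measured genes, 8.29% and 5.97% were higher in neutrophils and 23.9% and 42.0% lower. With the same genes out of the totals, the share of higher genes among those at least 2-fold apart moved from 25.8% to 38.8% and from 12.5% to 25.7%. Identity genes were higher for 20 of 23 in late KPfC and 17 of 21 in late KPC. In late KPfC 8 of 11 measured monocyte markers were lower in neutrophils, among them Ccr2, F13a1 and Ms4a6c, which were part of how the monocytes were chosen. In late KPC 6 of 9 were lower and 1 was higher, Ly6c2, which was also part of that choice.

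The factors that draw and sustain neutrophils differed in where they were highest. Cxcl1 stood at 4572 CPM in the collagen-positive barcodes of late KPC and 3206 in its macrophages, and at 1427 and 1883 in late KPfC. Cxcl5, a further Cxcr2 ligand, was highest in Epcam barcodes of late KPC at 693 CPM and 0 in its members. Cxcl2 stood at 21787, 13955 and 12209 CPM in macrophages of late KIC, late KPfC and late KPC, the same order as in the members, which in late KIC and late KPfC exceeded the other kept barcodes at 5321 and 8985. Cxcl3, a related Cxcr2 ligand, stood at 909 CPM in members and 662 in macrophages of late KIC, 674 and 209 in late KPfC, and 504 and 698 in late KPC, past 2-fold in late KPfC only (3.22-fold, 2.80 to 3.70). Csf3, the growth factor of the lineage, stayed under 100 CPM in each class of the 3 late tumours, and Il17a and Il17f under 1 CPM. Cxcl12, the Cxcr4 ligand, stood at 244, 120 and 433 CPM in the collagen barcodes of late KIC, late KPfC and late KPC, and had 0 UMIs in members.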

How the data were processed

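The 5 libraries were made from polyadenylated RNA of cell suspensions with a droplet 3′ kit, per the labels. The authors deposited gene by barcode tables of UMI counts, made with Cell Ranger 2.1.1 on GRCm38, per the submitters' processing notes, and these raw counts were used as deposited. Neutrophil barcodes were selected with Python 3.11.15 and numpy 2.4.6 by the limits given at the start of the results. No doublet caller was run; barcodes with Cd3, Cd79a, Epcam, C1q or collagen UMIs above the limits were left out, which removes only some doublets. C1q macrophages had at least 10 C1q UMIs per 10000 and under 10 of S100a8 and S100a9; monocytes had at least 5 of Ly6c2, Ccr2, F13a1 and Ms4a6c.

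UMIs were summed over the members of a library and divided by the members' total (CPM), with exact Poisson intervals; ratios have exact conditional binomial intervals (scipy 1.17.1), all at 95%. A gene was measured with at least 20 UMIs over both sums, and a 0 on 1 side was set to 3 counts over the sum of its class, giving a bound; where that bound pointed the other way the gene counted as within 2-fold. With 1 library per group no test was made. The ratio code was checked on simulated counts. Free RNA was marked where members lay under 0.5 of the other kept barcodes. Genes named are those of the gene lists and the 10 highest and 10 lowest of each comparison by the interval bound nearest to equality, leaving out genes of the rule, mitochondrial, acinar and haemoglobin genes, and genes whose members lay under the other barcodes in the higher library. A few genes are not reported here. The members and lists were chosen with earlier results of these data known. Other settings (UMI minimum per gene, S100, C1q and gene limits, receptor and monocyte-gene requirements, thinning, scaling, leaving out barcodes) numbered 14, and a further 4 were added after seeing the data. Promoter sequences came from RefSeq (GRCm38.p6).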

Additional observations from a re-analysis of the deposited data

Results flagged for a closer look

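For 5 genes the neutrophils of late KPfC and late KPC lay on opposite sides of the C1q macrophages of their own library, each by at least 2-fold; with 1 library per group the difference was not tested. The values are the log2 ratio of neutrophils to macrophages in late KPfC minus that in late KPC. Ccl4 gave -5.67: neutrophils held 6.39-fold less than macrophages in late KPfC and 7.98-fold more in late KPC, where macrophages held 156 CPM against 1745 in late KPfC. Chil3 gave 2.78, being 2.44-fold higher in late KPfC and 2.81-fold lower in late KPC, where macrophages held 6224 CPM. Emilin2 gave -2.90, being 2.67-fold lower in late KPfC and 2.79-fold higher in late KPC. Hspa1a gave 4.78, 2.41-fold higher on 92 UMIs, 66 of them in 1 of 3 members, and 11.4-fold lower on 1 UMI. Txnip gave -4.21, 2.97-fold lower on 3 UMIs and 6.24-fold higher on 9.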

How the results depend on the processing

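Every group is 1 library, so no result has a replicate check, and members of late KPC and normal pancreas are few. No paired analysis was possible because each group has 1 library. Of 65 genes named in the text that were at least 2-fold apart between late KPC and late KPfC, 62 kept their direction under every setting that gave a value and 46 stayed at least 2-fold apart; of the 19 ranked genes reported 18 did, Hcar2 being the exception. Counts of genes and members depended on the limits, and beyond the smaller number of genes, UMIs or barcodes that a setting leaves, the cause was not tested.

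Among barcodes with Ptprc, members were 0.741% in normal pancreas and 0% in early KIC. With C1q genes at 0, late KPfC kept 32 members (1.09%), and late KPC against late KPfC gave 66 genes higher and 250 lower. Asking for Csf3r or Cxcr2 left 1 barcode in early KIC, 5 in late KIC, 28 in late KPfC (0.955%) and 6 in late KPC (0.580%), and 1221 genes lower than in macrophages in late KPfC. Asking for no Ly6c2, Ccr2 or Csf1r left 0 in normal pancreas (0%), 2 in late KIC (0.239%), 45 in late KPfC (1.53%) and 11 in late KPC (1.06%). These 2 settings left late KPC under 20 members, so its comparisons were not run. Without the limit on Cd3, Cd79a and Epcam genes, chosen after seeing the data, late KIC had 17 members and late KPfC 3.55%.

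With at least 50 UMIs per gene, late KPC against late KPfC gave 46 higher and 260 lower; with at least 10, 244 higher; thinned to 500 UMIs, 30 and 91. Against macrophages in late KPfC, 50 UMIs gave 649 higher and thinning 284 and 604. In late KPC these were 94 higher at 50 UMIs, 424 higher at 10, and 79 and 364 thinned. Against monocytes in late KPfC, 50 UMIs gave 212 and 649, 10 UMIs 722 higher, thinning 78 and 289. In late KPC they were 60 and 543, 259 higher, and 54 and 255. Leaving S100a8, S100a9, mitochondrial, acinar and haemoglobin genes out of the totals gave 386 and 681 against macrophages and 204 and 590 against monocytes in late KPC. For late KPC against late KPfC it gave 140 and 476. Thinned, Emilin2 in late KPfC neutrophils over macrophages turned from -1.42 to 0.042 (log2). With an S100 limit of 50, late KPC over late KPfC turned from -1.14 to 0.10 for Slpi and from -1.66 to 0.056 for Cxcl1 (log2). Without the deepest member of each library, Mpo had no direction, at 0. The late KPfC member richest in Mpo, Elane and Prtn3 was left out after seeing the data.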
